A study of Mus musculus with 10 samples.

Results

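Spleen is represented by 1 of the 10 samples of the series, a pool of total RNA from CD1 mice, an outbred strain. It was chosen by its label and set against the other 9 tissues, which were muscle, brain, heart, intestine, kidney, liver, lung, salivary and testis, each likewise 1 pool of CD1 tissue. The labels give no age, sex, number of animals or treatment. With 1 sample per tissue there was no test, and every value below describes these arrays, whose number limits the precision. In a pool of whole tissue, a larger share of a cell type and more RNA per cell cannot be told apart.

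The spleen is a lymphoid organ. Its white pulp holds B and T lymphocytes, its red pulp holds macrophages that filter the blood, and in mice it also makes red blood cells. Lymphocytes are a textbook case of regulated splicing, since the variable exons of Ptprc, which encodes the surface phosphatase CD45, are included or skipped as these cells differentiate. An alternative exon of this kind (a cassette exon) is either joined to both of its neighbours or left out, so that the neighbours are joined to each other.

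The array read 3126 such events through 7 probes each, 21882 probes in all. C1 and C2 are probes in the bodies of the flanking exons, and A is the probe in the body of the alternative exon. C1:A and A:C2 cross the junctions made by inclusion, and C1:C2 crosses the junction made by skipping. What the INT probe of each event measures is not stated in the sources used here. Events carry Ben numbers without gene names, so no event could be tied to Ptprc or to any other lymphoid, macrophage or erythroid gene, and the tissue label could not be checked against markers.

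Values ran from 0 to 7.85 in spleen on a compressed scale whose base is not stated, so that differences are given in its units and no folds are stated. The spleen array had a median of 2.11, within the 2.04 to 2.19 of all 10 arrays, and 2.64% of its probes lay at exactly 0. A deviation is the value in a tissue minus the median of the other 9 tissues, with every array first centred on its own median. A value was called where its deviation passed 4 robust SDs of all deviations, which was 2.11 units for a probe, 2.15 for transcript level (the mean of C1 and C2) and 1.61 for the junction index (the average of the inclusion junctions, less the skipping junction). INT had a median of 1.21 over all arrays, and values at or below it are not read as exact sizes.

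Transcript level separated a small set of events in spleen. The level was called higher in 28 of 3126 events (0.896%) and lower in 7 (0.224%). Spleen had the highest level of all 10 tissues in 23 of the 28 events, with a median margin of 1.47 units over the next tissue and a largest margin of 2.67. Of these 23 events, the next tissue was intestine in 7, lung in 6, testis in 6, liver in 2, kidney in 1 and muscle in 1. Another tissue was also called higher in 11 of the 28, most often testis, in 5, while muscle was called in 0. The median deviation of the 28 was 2.45 units in spleen, against -0.16 in muscle. Set against the mean of the other 9 tissues in place of their median, 15 events were called higher and 4 lower, and without muscle in the comparator 4 were lower.

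**Figure D1:**
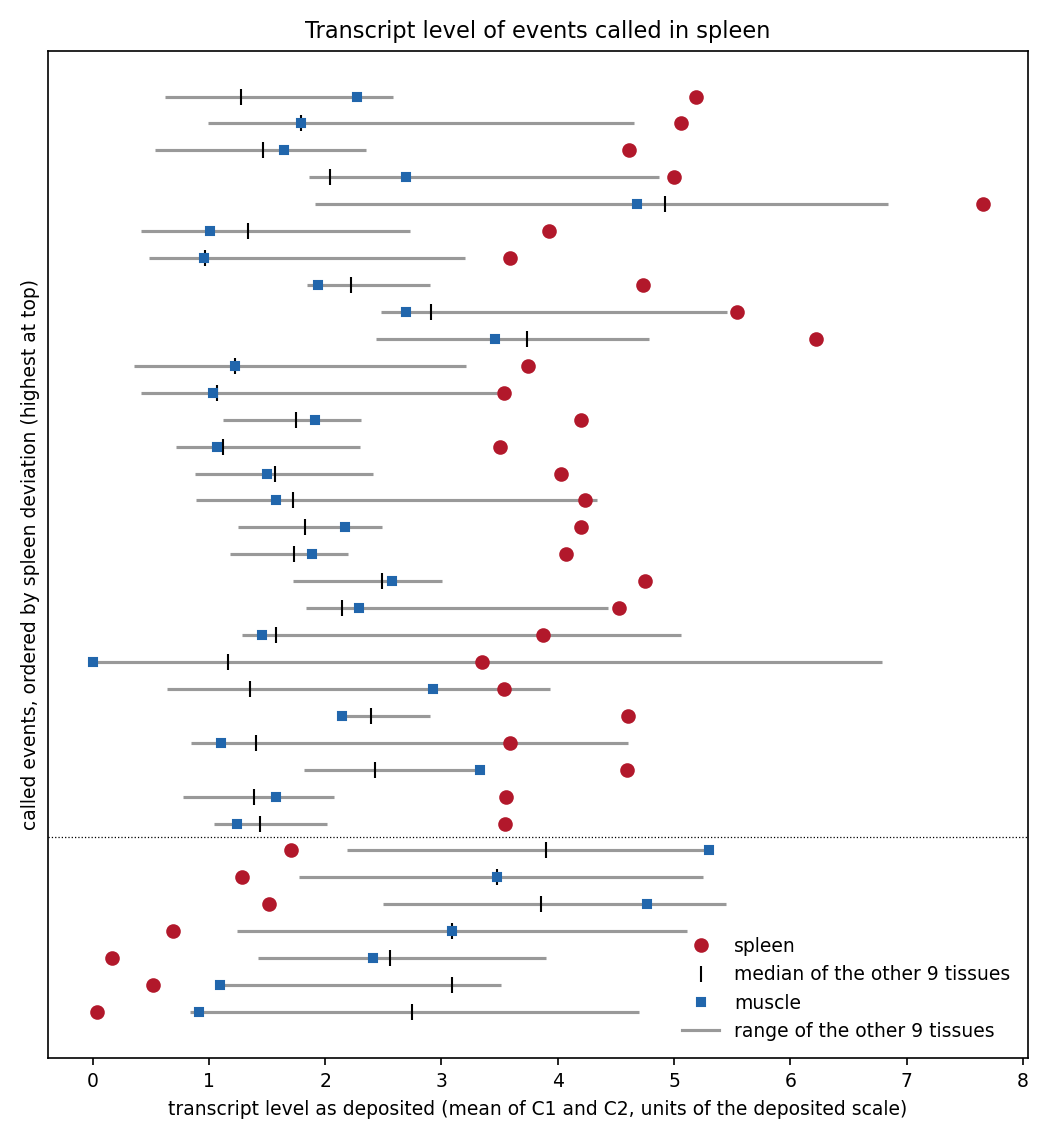
Transcript level (mean of C1 and C2, deposited scale) of the 35 called events, 1 row per event. Spleen and muscle are points, the median of the other 9 tissues is a tick, and their range, muscle included, is a line. Spleen lies above this range in 23 of the 28 events called higher and below it in all 7 called lower.

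Ben3588 had the largest level deviation, 3.92 units. Its level was 5.19 in spleen and 2.27 in muscle, and the other 9 tissues ran from 0.625 in salivary through a median of 1.28 to 2.59 in intestine. Spleen stood above every other tissue without overlap. Its exon and junction probes were high along with the level: C1 read 5.27 in spleen against 0.63 to 2.60 elsewhere, C2 read 5.11 against 0.62 to 2.57, and A read 4.53 against 1.66 to 3.29. The junction probes had 5.22 for C1:A, 4.98 for A:C2 and 4.41 for C1:C2 in spleen, each above all other tissues, while INT, with 4.45 in spleen, lay within its range of 3.74 to 5.09 elsewhere.

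Ben2562 came next, with a deviation of 3.27 and a level of 5.06 in spleen, 1.79 in muscle, and from 0.996 in brain through a median of 1.79 to 4.66 in intestine over the other 9 tissues. This event was high in both spleen and intestine, and intestine passed the threshold too. All 6 of its exon and junction probes passed the probe threshold in spleen. Its INT probe behaved differently, at 5.67 in spleen and 5.63 in muscle against 0.70 to 2.63 in the other 8 tissues, so that muscle joined spleen on INT and not on the flanking exons.

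Ben3525 had the lowest level deviation, -2.62. Its level was 0.0388 in spleen and 0.912 in muscle, and the other 9 tissues ran from 0.840 through a median of 2.74 to 4.70. C2 and A:C2 both read 0 in spleen, but C1:A and C1:C2 did not move with them, at 2.94 and 2.81 in spleen within 2.27 to 4.30 and 2.24 to 3.88 elsewhere. Ben2053 followed with -2.58, at 0.523 in spleen and 1.09 in muscle, and up to 3.51 in testis with a median of 3.09 over the other 9 tissues. Muscle was the second lowest tissue for Ben2053, with a deviation of -2.00. Sizes this close to 0 are bounds set by the scale, which stops there. Neither Ben3525 nor Ben2053 stayed called where each flanking exon had to exceed the 95th percentile of INT.

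The probes of the alternative exon and of the junctions mostly moved with the flanking exons where the level was higher. All 6 exon and junction probes passed 2 robust SDs in 13 of the 28 events, and all 6 passed the full threshold in 5. The A probe passed 2 robust SDs in 23 of the 28 and did not in the other 5, with a median A deviation of 2.10. Among the 7 lower events A passed in 4 and not in 3, with a median of -1.12. INT mostly did not follow level: its median deviation was 0.15 units over the 28 higher events and -0.10 over the 7 lower ones. It did rise in some higher events, by 4.56 in Ben2562, 2.57 in Ben1213, 1.92 in Ben1937 and 1.49 in Ben2667.

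Single probes gave a different picture from transcript level, and muscle was high on many of the same ones. Of all probes, 327 (1.49%) were called higher in spleen and 42 (0.192%) lower, and 146 of the 327 also passed in muscle. Both the low and the shared probes were spread unevenly over the kinds. The low probes were 14 for C1 (0.448%), 15 for C2 (0.48%), 5 for A, 4 for C1:A (0.128%), 3 for A:C2 (0.096%), 1 for C1:C2 (0.032%) and 0 for INT (0.0%). Among the high ones, on the flanking exons 28 C1 probes (0.896%) and 44 C2 probes (1.41%) were high, and 8 of these 72 (11.1%) were high in muscle too. On the junctions the shared number was 98 of 185 (53.0%), made up of 49 of 81 for C1:A (2.59% of C1:A probes were high), 23 of 54 for A:C2 (1.73%) and 26 of 50 for C1:C2 (1.6%). For INT it was 27 of 31 (0.992% of INT probes were high), and those 27 were every INT probe called high in muscle. With the threshold for muscle eased to 3 robust SDs (1.58 units), 166 of the 327 probes and 30 of the 31 INT probes counted as shared.

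**Figure D2:**
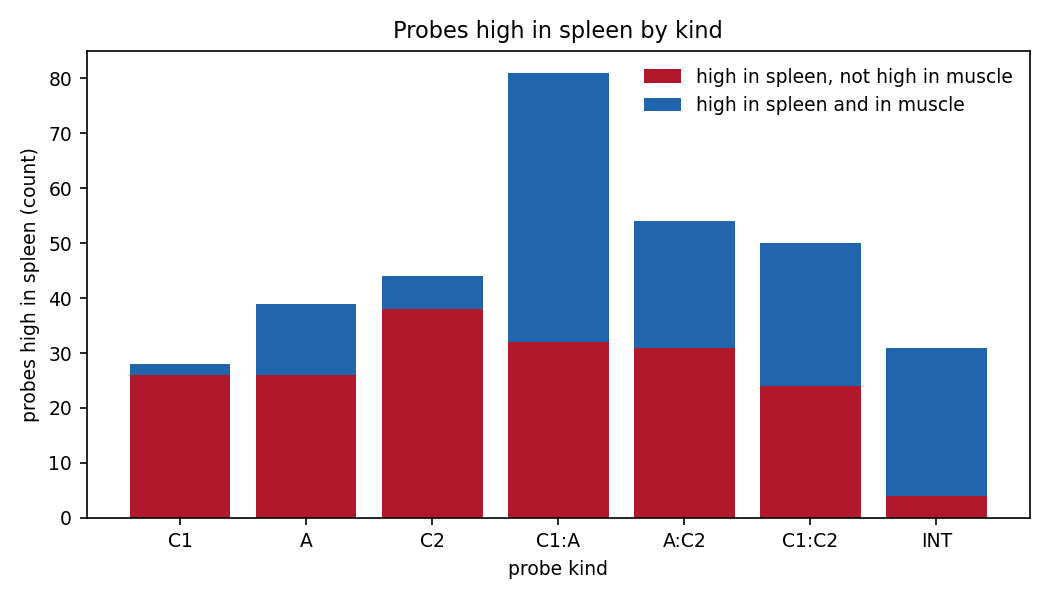
Number of probes called higher in spleen for each probe kind, split into those also past the threshold in muscle and those not. The shared part is 2 of 28 for C1 and 6 of 44 for C2, against 49 of 81 for C1:A and 27 of 31 for INT.

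The shared probes had nearly equal values in the 2 tissues. Over the 146 probes the median deposited value was 4.25 in spleen and 4.17 in muscle, against 0.959 in the other 8 tissues. Spleen minus muscle had a median of 0.0961 units, with quartiles of 0.0399 and 0.153, and was positive in 131 of 146. For comparison, the median absolute difference on probes high in both tissues was 0.0974 units for spleen and muscle (146 probes), 0.373 for heart and muscle (67), 0.578 for kidney and liver (207) and 0.736 for intestine and liver (89). The 181 spleen-high probes that did not pass in muscle had a median spleen minus muscle of 2.44 units and a median muscle deviation of -0.05.

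**Figure D3:**
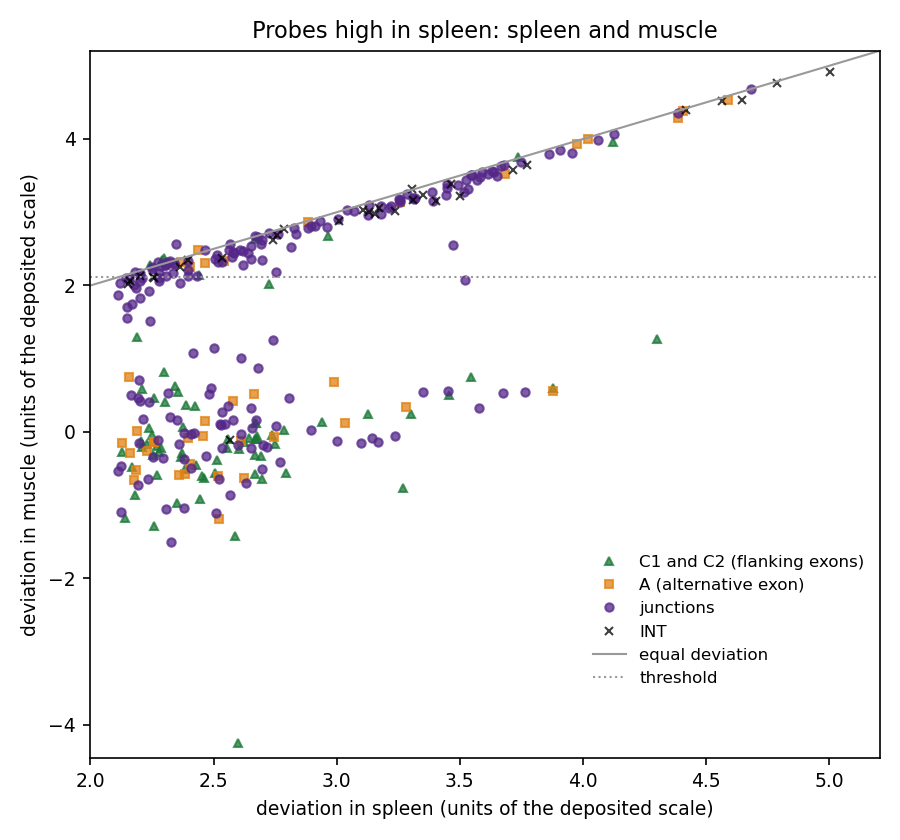
Deviation of each probe called higher in spleen, in spleen on the x axis and in muscle on the y axis, in units of the deposited scale, with the diagonal of equal deviation. The 146 shared probes lie along the diagonal, and most of the other 181 lie near 0 in muscle.

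The shared probes also tended to stand alone within their event. Of the 146, 103 (70.5%) were the only high probe of their event in spleen, against 45 of the 181 not shared (24.9%). Events with at least 3 high probes held 10 shared probes, against 99 that were not shared.

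Over all values, the spleen and muscle arrays were the closest pair of the 45 on 2 measures. The median absolute difference between spleen and muscle on INT was 0.174 units, the smallest of all pairs, against 0.251 to 0.475 between spleen and the other 8 tissues. With each array's values sorted, the mean difference was 0.0139 units for spleen and muscle, also the smallest, against 0.0255 for spleen and lung. On the flanking exons muscle was still the tissue closest to spleen, with 0.385 units against 0.416 for intestine, the next. They were not the closest of all pairs there, since lung and salivary differed by 0.294. By this measure muscle was the tissue closest to spleen on each of the 7 probe kinds. Flanking-exon probes made up 22.0% of the high probes in spleen and 19.8% in muscle, against 32.0% to 40.6% in the other 8 tissues. The part of this likeness between the arrays in the shared calls was not tested.

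The A body probes fell into the same 2 kinds. The A probe was called higher in 39 events (1.25%) and lower in 5 (0.16%), and 13 of the 39 also passed in muscle. The 26 that did not pass in muscle had a median A deviation of 2.43 and a median level deviation of 2.14, and in 21 of them at least 3 of the other 5 exon and junction probes passed 2 robust SDs. The 13 shared ones had a higher median A deviation, 3.26, but a median level deviation of -0.09, and in 9 of them no other exon or junction probe passed. In 13 of the 26 the level was called as well, and in 0 of the 13.

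A pair of events, chosen after their values were seen, show the shared kind. In Ben2827 the A probe read 5.061 in spleen and 4.999 in muscle, against 0 to 2.48 in the other 8 tissues, and C1:A read 4.56 and 4.49 in the same pair. Its flanking exons lay at 0.374 for C1 and 0.615 for C2 in spleen, below the INT median, and A:C2 was at 0 in both tissues, so the 2 inclusion junctions of this exon disagreed. In Ben1093 A read 4.57 in spleen and 4.54 in muscle, against 0 to 1.49 elsewhere, while C1:A read 0 in spleen. Muscle differed from spleen on the junctions of this event, at 2.09 for C1:A, 2.02 for A:C2 and 2.05 for C1:C2, each the highest of the 10 tissues.

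The 5 lower A probes were those of Ben434, Ben695, Ben879, Ben1375 and Ben2091, named because they are few. At least 3 other probes passed with A in 3 of them. Ben695 and Ben1375 were also among the 7 events called lower by level, with level deviations of -2.37 and -2.19 in spleen.

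The junction index, which rises with inclusion and falls with skipping, was read in 2695 events. In these the transcript level exceeded the lowest 25% of values in spleen and in the median of the other tissues. It was called higher in 21 (0.779%) and lower in 24 (0.891%). Each call was then sorted by the probes behind it. A junction or A probe was counted as backing where its own deviation passed 2 robust SDs of its kind, 1.06 to 1.12 units, in the direction of the call. Of the 45 calls, 8 had at least 2 backing probes, 23 had a single one that passed in muscle too, and 14 had a single one that did not pass in muscle. Several-probe calls numbered 4 without kidney and 5 without liver in the comparator. Where junction values also had to exceed the 95th percentile of INT, 1 call was higher and 6 were lower.

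The share of spleen calls backed by several probes, 17.8%, was low beside the 25% to 46.2% of the other tissues apart from lung, which had 14.7%. A backing probe that also passed in muscle was present in 28 of the 45 spleen calls (62.2%). For muscle calls with a backing probe that passed in spleen it was 23 of 59 (39.0%), for liver with kidney 38 of 64 (59.4%) and for kidney with liver 37 of 73 (50.7%). Calls resting on a single shared probe numbered 23 of 45 in spleen, 19 of 59 in muscle, 21 of 64 in liver and 14 of 73 in kidney.

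The A body probe gave a reading of these calls that the junction index does not use. The body index is A less the transcript level, and it had the sign of the call in 30 of the 45 (66.7%, 95% exact binomial interval 51.0% to 80.0%, which covers counting error only), against 59.7% over all 2695 events. The other tissues had 78.0%, in muscle, to 90.0%, in salivary. By support, the body index had the sign of the call in 6 of the 8 with several probes. It did so in 12 of the 14 with a single probe not passing in muscle (85.7%, 57.2% to 98.2%). With a single probe passing in muscle it did so in 12 of the 23 (52.2%, 30.6% to 73.2%). These intervals also cover counting error only and are no comparison of the classes. The sorting itself used A, which backed 6 of the 8 several-probe calls and 0 of the single-probe ones. Agreement by class is therefore partly set by the sorting. The median body deviation in the direction of the call was 0.66, 1.14 and 0.04 units in the same 3 classes, and 0.06 over all 2695 events.

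In liver, 21 of 21 calls resting on a single probe shared with kidney had the body index on the side of the call, and in kidney 14 of 14 resting on a single probe shared with liver. For muscle calls resting on a single probe shared with spleen it was 12 of 19. The body index uses the flanking exons, as the level does, but it does not use the junction probes, so the junction probe behind a call does not enter it. Transcript level also deviated in the class with a single probe not passing in muscle, and it enters the body index with a minus sign.

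**Figure D4:**
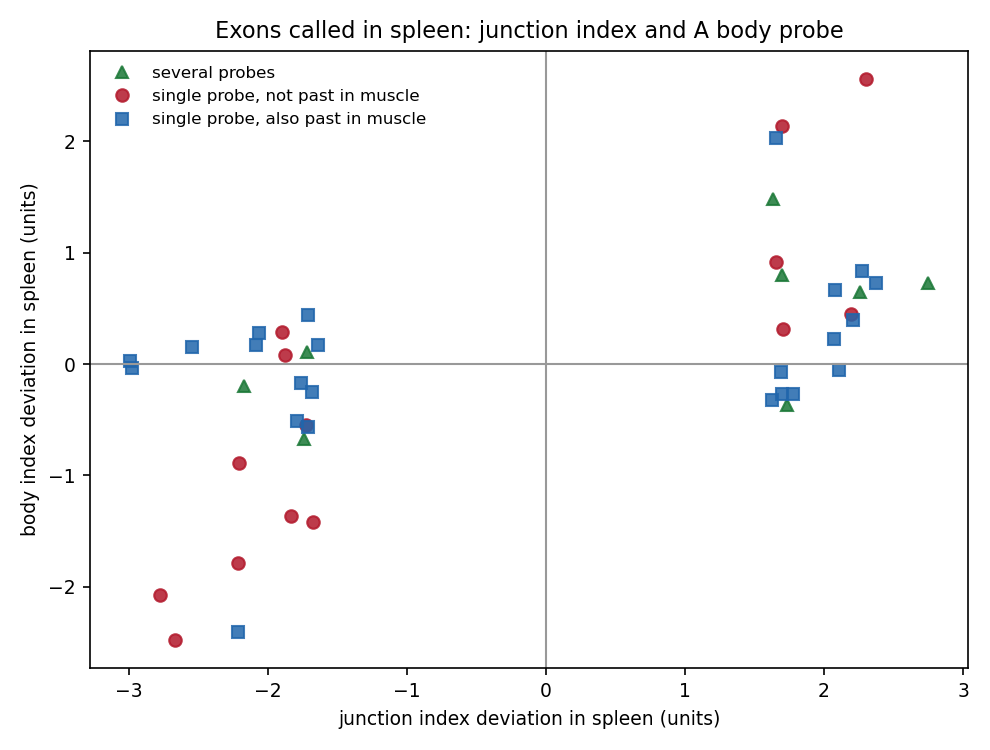
Junction index deviation (x axis) and body index deviation (y axis) in spleen, in units, for the 45 called events, coloured by support. The 23 calls resting on a single probe also past in muscle lie mostly near 0 on the y axis, with a median of 0.04 in the direction of the call.

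Of the 8 calls backed by several probes, 5 were higher and 3 lower, and 3 of the 8 had no backing probe that passed in muscle. Ben2478 led them with an index deviation of 2.75 in spleen and 0.12 in muscle. C1:A read 3.61 in spleen against 0.42 to 1.57 in the other 9 tissues, A:C2 read 5.81 against 2.19 to 3.79, and A read 5.67 against 1.60 to 3.48. The skipping junction C1:C2 stayed within its range, at 0.49 in spleen and 0.23 to 0.77 elsewhere. The flanking exons were higher too, with a level deviation of 2.33, and the body deviation was 0.73. Backing was counted without subtracting level. The 3 backing probes of Ben2478 rose along with its level, by 2.55 for C1:A, 2.67 for A:C2 and 3.03 for A. C1:C2 did not rise with them, with a deviation of -0.05. The C1:C2 values of Ben2478 all lay below the INT median, so the size of this index deviation is not exact.

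The other 2 calls without a muscle probe, named because they are few, were both higher. Ben706 had an index deviation of 1.74 with a level deviation of 2.67, and its body deviation of -0.37 went the other way. Its backing probes also rose along with level, by 2.90 for C1:A, 3.24 for A:C2 and 2.19 for A. Its inclusion junctions read 3.49 for C1:A and 3.25 for A:C2 in spleen, against at most 2.21 and 2.38 elsewhere, both in liver. This call was lost under quantile normalization, with brain, intestine, kidney, liver or testis left out of the comparator, and with each flanking exon held to the level filter, in each case through the filter, since the deviation stayed between 1.67 and 1.87. Against the mean of the other 9 tissues it was 1.66 and fell short of the threshold. For Ben349 the junction index deviated by 1.70, the body index by 0.80 and the level by 0.63. Brain exceeded spleen on its 3 inclusion probes, since A read 3.98 in spleen and 4.13 in brain, C1:A 3.08 and 3.36, and A:C2 3.03 and 3.83. Heart, which was also called higher, had a higher junction index, with -0.25 in spleen and -0.11 in heart. The call of Ben349 fell short of the threshold under quantile normalization (1.56), against the mean (1.38), and with intestine, kidney, lung or salivary left out of the comparator (1.51 each).

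The remaining 5 had a backing probe that passed in muscle. Ben2791 had an index deviation of 2.26 in spleen and 2.70 in muscle, both backing probes passed in both tissues, and C1:A was 3.57 in spleen, 3.60 in muscle and 3.94 in brain. A:C2, the other inclusion junction, read 0.531 in spleen, a deviation of -1.12 against the call. The index of Ben2791 was called higher in brain and testis as well. Its A probe read 0.364 in spleen, below the INT median. Ben1883, with 1.63, had a body deviation of 1.484, and A read 2.65 in spleen and 0.294 in muscle, so the A probe was high without muscle while C1:A, at 3.41 and 3.11, was high with it. Testis exceeded spleen on A, at 4.72. The call of Ben1883 was lost against the mean of the other 9 tissues (1.20) and without lung in the comparator (1.62).

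The lower 3 were Ben816 with -2.17 in spleen and -1.87 in muscle, Ben2316 with -1.74 and -1.45, and Ben4329 with -1.72 and -1.50. In Ben2316 the skipping junction read 4.21 in spleen and 4.19 in muscle against 1.05 to 2.21 in the other 8 tissues, while A read 0.615 in spleen, 1.71 in muscle and 1.14 to 2.04 in the other 8. Spleen alone was low on A there. Its A deviation of -1.10 just passed the 1.08 needed for backing, at a value below the INT median. Spleen and muscle together were high on C1:C2. A:C2, an inclusion junction, was also high in both, at 4.24 and 4.24. Against the mean of the other 9 tissues the index deviation of Ben2316 was -1.47, short of the threshold. In Ben816 C1:A read 1.28 in spleen, the lowest of the 10 tissues, against 2.08 in muscle, and C1:C2 read 3.16 in spleen and 3.34 in muscle. Spleen was also the lowest tissue on C1, C2 and A of Ben816, with a level deviation of -0.96 and a body deviation of -0.20. In Ben4329 the level deviated by -1.28 in spleen, C1:A by -1.23 and A by -1.24. Its body deviation of 0.11 went against the call.

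The 23 calls resting on a single probe that passed in muscle too were 11 higher, 10 of them through C1:A and 1 through C1:C2, and 12 lower, all through C1:C2. By index, 16 of the 45 spleen calls were called in the same direction in muscle. The highest deviations of the class were those of Ben2884, 2.37 in spleen and 1.79 in muscle, and Ben3697, 2.28 and 2.69. In Ben3697 C1:A read 3.46 in spleen and 3.33 in muscle, against 0 to 0.862 in the other 8 tissues. A:C2, the other junction of the same exon, read 0.982 in spleen and 1.34 in muscle, within the 0.552 to 1.39 of the other 8, and A read 1.88 and 1.66.

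In Ben2884 C1:A read 4.11 in spleen and 4.02 in muscle, against 0.281 to 3.10 in the other 8 tissues. A lay at 0.76 and 0.77 in the same 2 tissues and A:C2 at 0.578 and 0.605, all below the INT median. The inclusion junctions thus gave unlike readings of the same exon in both events.

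The lowest deviations were those of Ben4135, -2.99 in spleen and -3.18 in muscle, and Ben412, -2.98 and -2.50. C1:C2 of Ben4135 read 3.93 in spleen and 3.83 in muscle, against 0 to 1.78 in the other 8 tissues. Its A probe read 2.73 and 2.33, its level deviation was -0.18, and its body deviation was 0.02. In Ben412 C1:C2 read 5.19 in spleen and 4.97 in muscle, against 1.22 to 2.31 in the other 8, and A:C2 was also high, at 5.19 and 5.09 against 2.93 to 4.27, with a body deviation of -0.04. The A probe passed 2 robust SDs in neither event.

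**Figure D5:**
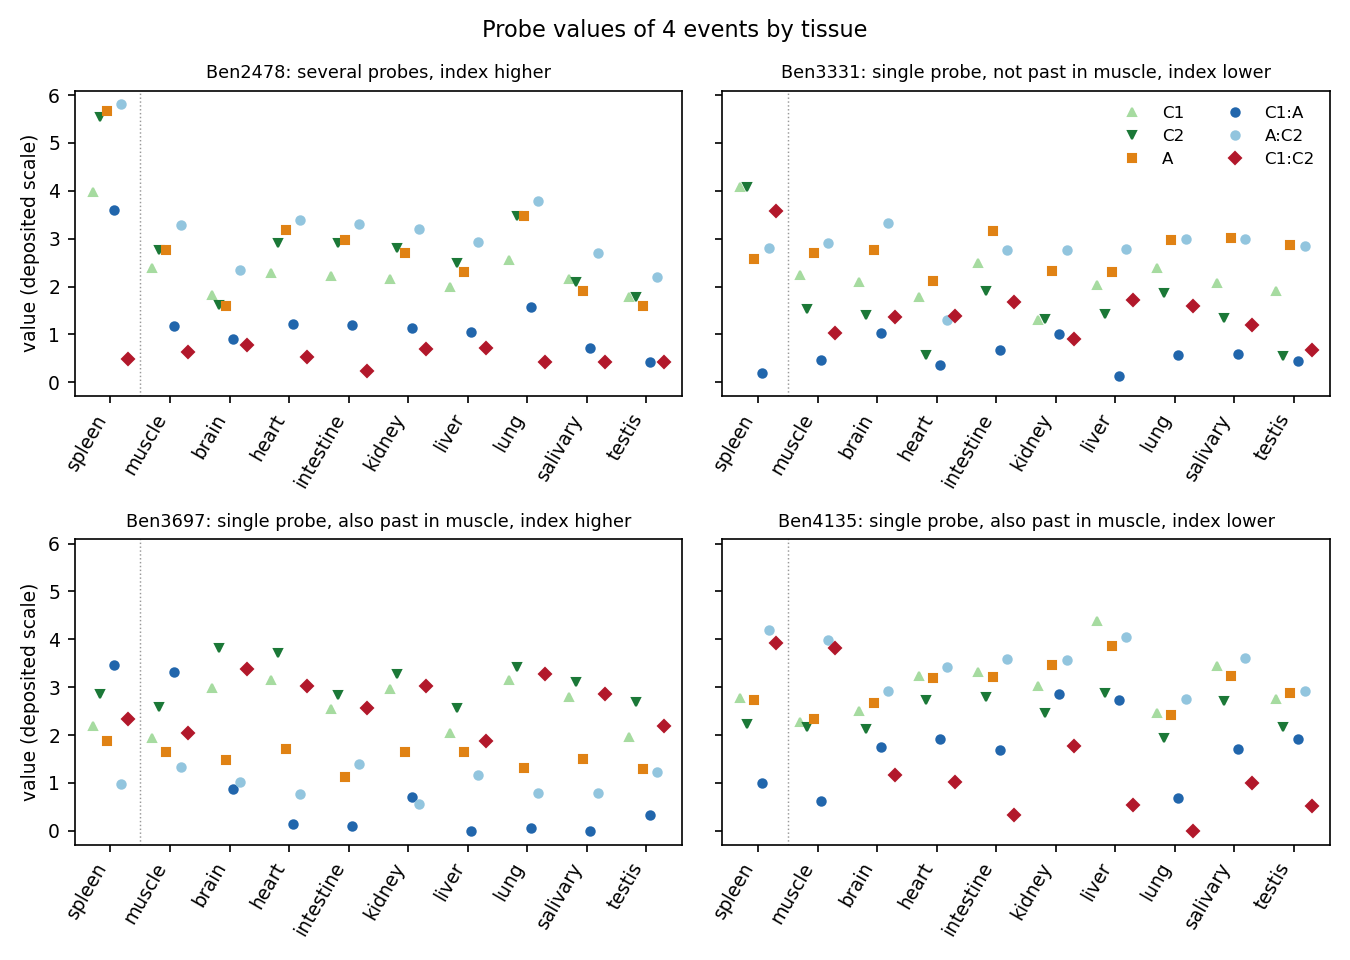
Values of the 6 exon and junction probes in all 10 tissues (deposited scale) for Ben2478, Ben3331, Ben3697 and Ben4135. In Ben2478 and Ben3331 spleen differs from muscle on several probes, whereas in Ben3697 and Ben4135 a single junction probe is high in both spleen and muscle.

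The 14 calls resting on a single probe that did not pass in muscle were 5 higher, all through C1:C2, and 9 lower, 8 of them through C1:C2 and 1 through A:C2. Transcript level lay on the opposite side of the index in all but Ben1541, a lower call with a level deviation of -0.98. The median level deviation was -1.43 over the 5 higher and 1.17 over the 9 lower. The highest were Ben563 with 2.30 and Ben2629 with 2.19, and the lowest Ben319 with -2.77 and Ben3331 with -2.67.

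These 4 were chosen after their values were seen. In Ben3331 the flanking exons and the skipping junction were high in spleen while the exon was not. C1 and C2 both read 4.07 in spleen, against at most 2.49 and 1.90 elsewhere, both in intestine, and C1:C2 read 3.57 against 0.68 to 1.71. A read 2.57 in spleen, within the 2.11 to 3.17 of the other tissues, and A:C2 read 2.81 within 1.30 to 3.32. The level deviation was 2.34 and the body deviation -2.48, so that the exon was lower relative to its flanks by both the junction and the body reading. A deviated by -0.13 and A:C2 by -0.03, so both readings came mostly from the higher flanks and C1:C2. C1:A, which enters the index, read 0.197 in spleen and lay below the INT median in all 10 tissues.

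Ben563 was the reverse case. C1:C2 read 1.49 in spleen, the lowest of the 10 tissues, against 1.93 to 5.28 elsewhere and 5.05 in muscle, and C1 read 1.49 in spleen against 5.12 in muscle. A read 2.05 in spleen, within the 1.46 to 2.59 of the other 9 tissues. The level deviation was -2.16 and the body deviation 2.56. Testis was called higher by the index as well, with 2.14 for C1 and 1.93 for C1:C2. Muscle went the other way, with an index deviation of -1.37.

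In Ben319 all 4 of the splicing probes leaned the same way. C1:C2 read 4.47 in spleen, the highest value, against 1.65 to 3.71 elsewhere, and A, C1:A and A:C2 had deviations of -0.91, -0.90 and -1.11, each short of 2 robust SDs. The body deviation was -2.07 and the level deviation 0.76. Ben2629 had a body deviation of 0.45 and a level deviation of -1.43, and its A probe, at 0.172 in spleen, lay below the INT median. Intestine was called higher for Ben2629 too, with an index of 0.834 against 1.25 in spleen. The body index passed 2 robust SDs in the direction of the call in 9 of these 14 events, against 3 of the 23 in the class shared with muscle and 2 of the 8 with several probes. Over all testable events it was 217 of 2695.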

How the data were processed

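The authors' deposited value table holds 1 column per tissue and 21882 probe values in each, treated as a score of unstated scale. Not given in the sources used here are its base, its transformation, its normalization and the probe sequences. Each array was centred on its median, and spleen was set against the median of the other 9 tissues, with thresholds of 4 robust SDs (median absolute deviation times 1.4826). Junction index calls needed the mean of C1 and C2 above the lowest 25% of values in spleen and in the median of the others. No model was fitted, as each tissue had 1 sample. Items named for each readout were the 2 highest and the 2 lowest by deviation, taken for the index among several-probe calls and among single-probe calls shared with muscle, and others are marked as chosen after their values were seen or as few. The rule, classes and items were chosen with earlier results of these data known. Gene lists and marker lists were not applied, because no event is paired with a gene. Scripts ran in Python 3.11.15 with pandas 2.3.3, numpy 2.4.6, matplotlib 3.10.9 and scipy 1.17.1.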

Additional observations from a re-analysis of the deposited data

How the results depend on the processing

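No paired analysis was possible because replicate numbers are absent, with 1 sample per tissue, and no threshold for outlying samples applies to groups of 1. Quantile normalization, the columns as deposited and most single tissues left out of the comparator kept each count within 1.5 times its value. The mean of the other 9 tissues as comparator gave 212 probes higher and 25 lower, 15 levels higher and 4 lower, 14 single-probe calls shared with muscle, 9 not shared, and 93 shared probes. At 3 robust SDs these were 637 and 171 probes, 67 and 25 levels, 54 index calls higher and 62 lower, 21 with several probes, 47 single and shared and 29 single and not shared. At 6 robust SDs they were 80 and 0 probes, 3 and 0 levels, 1 and 5 index calls, 1, 3 and 2 by support, and 51 shared probes. Without muscle in the comparator 4 levels were lower, and with each flanking exon above the 95th percentile of INT 3 were. Several-probe calls numbered 4 without kidney and 5 without liver in the comparator, 14 with level deviations subtracted (and 7 single calls not shared), 14 with backing at 1.5 robust SDs and 5 at 3. Index calls higher numbered 33 without the level filter. With junctions above the 95th percentile of INT 1 was higher and 6 lower. With C1:A as the only inclusion junction they were 62 and 55, with A:C2 alone 7 and 13, and by the body index 28 and 9. The events called also changed. Of the 21 higher and 24 lower calls, 20 and 22 were kept with C1:A alone. With A:C2 alone 3 and 8 were kept, and by the body index 3 and 4. Leaving out the high probes and the single-probe index calls shared with muscle was chosen after seeing the data. It left 181 high probes and 10 index calls higher and 12 lower. Calls with no backing probe that passed in muscle numbered 17, of which 8 were higher and 9 lower. The body index gave the opposite sign for Ben4135 (0.024), Ben706 (-0.37) and Ben4329 (0.11). The causes of these shifts were not tested. Of 380 values of named events under alternatives, 310 kept the call, 67 lost it, through a smaller deviation, a higher threshold or a filter, and 3 changed sign. Of the 42 low probes, 3 were at 0 in spleen, where the scale bounds the deviation.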

Other observations

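Spleen was the lowest of the 10 tissues in 32 of its 42 low probes. Among the other tissues, muscle shared 146 of the 327 spleen-high probes, testis 24, intestine 17, liver 17, brain 14, lung 10, heart 5, salivary 5 and kidney 4. By uncentred transcript level over 3126 events, a correlation across events that are not independent, spleen had Pearson's r of 0.696 with lung, 0.693 with intestine, 0.683 with muscle, 0.625 with salivary, 0.623 with liver, 0.595 with heart, 0.591 with kidney, 0.439 with testis and 0.431 with brain. Ben1034, chosen after its values were seen, had an A probe of 4.02 in both spleen and brain, against 1.33 to 2.75 in the other 8 tissues.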
